A study of Mus musculus with 6 samples.

Results

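Elastic fibre and microfibril genes were described in ribosome-associated RNA of neonatal mouse kidney. The set holds 10 genes of 48587 in the deposited table: Eln, Lox, Loxl1, Fbn1, Fbn2, Fbln5, Efemp1, Efemp2, Mfap2 and Mfap4. They were listed by name, and the list was drawn up because Eln, Lox and Efemp1 were higher and Mfap4 was lower in Foxp1-deficient libraries. Differences between the groups are therefore given here as a description, with no test of any of the 10. All 10 passed the filter on low counts.

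The 6 libraries were 3 neonatal littermate controls (Cdh16Cre;Foxp1fl/+;RiboTag) and 3 Foxp1-deficient libraries (Cdh16Cre;Foxp1fl/fl;RiboTag), called KO below after their genotype label Foxp1_KO. All carried the Cre driver, the RiboTag allele and at least 1 floxed Foxp1 allele, so the controls were heterozygous for the flox and not wild type. With RiboTag, ribosomes of cells that have expressed Cre carry an HA tag, Cdh16 is a cadherin gene of kidney tubule epithelium, and anti-HA beads pulled down the tagged ribosomes with their RNA. The treatment label read vehicle for controls and chronic acid load for Foxp1-deficient libraries, while the protocols described no acid load, so genotype and treatment cannot be told apart. Age was given only as neonatal. Nothing in the labels says that the replicates were separate animals, so the errors measure the spread between libraries, which may be technical.

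Elastic fibres let vessels, airways and connective tissue stretch and recoil. They form when secreted tropoelastin, the product of Eln, is laid on a scaffold of fibrillin microfibrils, steered there by short fibulins, and crosslinked by the copper enzymes lysyl oxidase and lysyl oxidase-like 1. In kidney they are known from arteries, the renal capsule and the interstitium, and they are made by mesenchymal cells more than by tubule epithelium.

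The libraries held 9710048 to 18958196 counts, and those numbered 2 in each group stood apart from the other 4. They had 13885 and 14285 genes detected, against 18241 to 22190 in the others. Foxp1 itself measured 51.4, 26.0 and 40.5 CPM across control libraries 1, 2 and 3, and 36.3, 9.17 and 33.7 CPM across KO libraries 1, 2 and 3. In each equally numbered pair the KO library had less of it, and the groups overlapped. CPM are counts scaled to a common library total. The labelled cell type, kidney tubular cells, was poorly represented: the summed level of 8 tubule markers was 35.9 to 104 CPM in the libraries numbered 1 and 2 and 469 and 597 CPM in those numbered 3. Lrp2 alone gave 34.9 and 27.4 CPM of that sum in controls 1 and 2, and 55.2 and 97.4 CPM in KO 1 and 2. Cdh16, the gene of the Cre driver, measured 0.35, 9.23 and 48.6 CPM across control libraries 1, 2 and 3. Across KO libraries 1, 2 and 3 it measured 0.297, 1.96 and 48.5 CPM. Of the 8, Slc34a1, Umod, Slc12a1, Slc12a3, Aqp2 and Epcam had no count in at least 1 library. In contrast, 10 fibroblast and stromal markers summed to 3420 to 22936 CPM. In such pooled tissue RNA, fewer cells of a type and less RNA per cell cannot be told apart.

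Eln (chromosome 5, 134702593 to 134747323, mm10) encodes tropoelastin, the rubber-like core of the fibre. It measured 11.3, 22.1 and 85.4 CPM across control libraries 1, 2 and 3, and 71.3, 151 and 274 CPM across KO libraries 1, 2 and 3. The groups overlapped, because control 3 lay above KO 1, but within each pair the KO library was the higher. Eln also had the widest range of the 10 genes across the 6 libraries, with a highest CPM 24.3 times the lowest. Scaled by TMM, a normalization for library composition, it averaged 37.5 ± 33.9 CPM in controls and 164 ± 87.3 in KO libraries (SD, n = 3 each). Its log2 difference was 2.13 (SE 0.79), or 4.38-fold. It was 3.16 (SE 0.79) without control 3, and 1.83 (SE 1.08) without the libraries numbered 2. Paired by number, the log2 differences of Eln were 2.61, 2.81 and 1.65.

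Lox encodes lysyl oxidase, which oxidizes lysines of elastin and collagen so that they crosslink, and lies on chromosome 18. It measured 373, 133 and 524 CPM across control libraries 1, 2 and 3, and 1034, 203 and 1352 CPM across KO libraries 1, 2 and 3. The libraries numbered 2 were the lowest of each group, and only KO 2 lay within the range of the controls. The TMM-scaled means were 325 ± 155 and 803 ± 487 CPM (SD, n = 3 each), with a log2 difference of 1.30 (SE 0.68). Without the libraries numbered 2 the difference of Lox was 1.41 (SE 0.27).

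Loxl1 (chromosome 9, 58287723 to 58313212), the family member devoted to elastin maintenance, did not share the pattern of Lox. It measured 495, 729 and 506 CPM across control libraries 1, 2 and 3, and 457, 1044 and 542 CPM across KO libraries 1, 2 and 3. The libraries numbered 2 were here the highest, and the groups overlapped. Its log2 difference was 0.30 (SE 0.57), and it was -0.01 (SE 0.21) without the libraries numbered 2 and -0.38 without KO 2 alone. Per length, the ratio of Lox to Loxl1 was 0.523, 0.127 and 0.717 across control libraries 1, 2 and 3, and 1.57, 0.135 and 1.73 across KO libraries 1, 2 and 3. Lox thus exceeded Loxl1 in KO libraries 1 and 3 only, and the ratio barely differed between the libraries numbered 2.

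**Figure D1:**
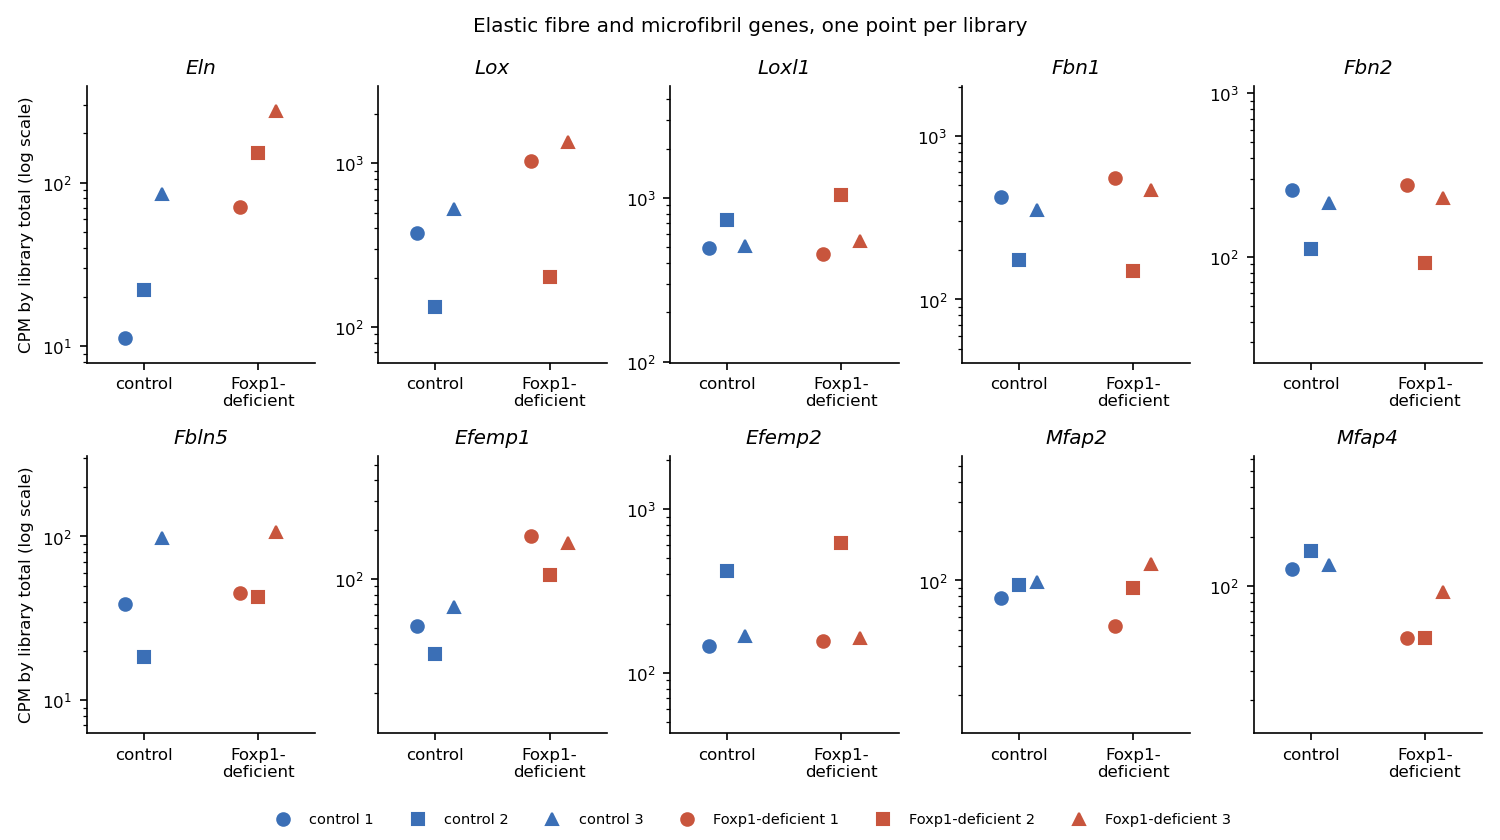
Level of each gene in every library, as CPM of the library total on a log axis that spans the same fold range in each panel; symbols give the replicate number. Efemp1 and Mfap4 are the genes whose groups do not overlap, and the squares of the libraries numbered 2 lie apart for Lox, Loxl1, Fbn1, Fbn2 and Efemp2.

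The short fibulins Efemp1, Efemp2 and Fbln5 are related secreted matrix proteins. Efemp1, encoding fibulin-3, measured 51.8, 35.0 and 67.4 CPM across control libraries 1, 2 and 3, and 183, 106 and 166 CPM across KO libraries 1, 2 and 3. Every KO library lay above every control. TMM-scaled means were 50.1 ± 9.18 and 149.7 ± 22.3 CPM (SD, n = 3 each), the log2 difference was 1.58 (SE 0.34), or 2.99-fold, and its pair differences were 1.81, 1.65 and 1.27. Of all the members, Efemp1 had the smallest SE of the difference, and it was 1.55 (SE 0.21) without the libraries numbered 2.

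Efemp2, encoding fibulin-4, which brings lysyl oxidase to elastin, followed the replicate number instead. It measured 145, 419 and 168 CPM across control libraries 1, 2 and 3, and 157, 619.9 and 163 CPM across KO libraries 1, 2 and 3. Pair differences were 0.12, 0.63 and -0.07, so the pair numbered 2 lay furthest apart. The log2 difference of 0.44 (SE 0.83) went to 0.03 (SE 0.18) without the libraries numbered 2 to -0.83 without KO 2 alone and to 1.28 without control 2 alone. Fbln5 (chromosome 12, 101746565 to 101819055), encoding fibulin-5, measured 38.6, 18.3 and 97.9 CPM across control libraries 1, 2 and 3, and 44.9, 42.5 and 106 CPM across KO libraries 1, 2 and 3. It was higher in the KO library of each pair, by 0.22, 1.26 and 0.09 on the log2 scale, and the fitted difference was 0.37 (SE 0.58), or 1.10 (SE 0.58) without control 3.

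Efemp1 and Efemp2, the first separating the groups and the second following the replicate number, are shown by their upstream sequence. The 250 bases before the RefSeq start on the plus strand of GRCm38.p6 (the mm10 assembly) lie at chr11:28852955-28853204 for Efemp1 and at chr19:5473696-5473945 for Efemp2, the first of 3 start sites that RefSeq lists for it. Capitals mark the GC box letters GGGCGG, read on either strand.
Efemp1: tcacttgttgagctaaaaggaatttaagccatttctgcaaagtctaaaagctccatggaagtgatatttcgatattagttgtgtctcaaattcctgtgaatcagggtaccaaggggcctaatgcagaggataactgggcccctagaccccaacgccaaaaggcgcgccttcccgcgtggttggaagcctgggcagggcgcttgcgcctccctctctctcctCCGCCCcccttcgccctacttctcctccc
Efemp2: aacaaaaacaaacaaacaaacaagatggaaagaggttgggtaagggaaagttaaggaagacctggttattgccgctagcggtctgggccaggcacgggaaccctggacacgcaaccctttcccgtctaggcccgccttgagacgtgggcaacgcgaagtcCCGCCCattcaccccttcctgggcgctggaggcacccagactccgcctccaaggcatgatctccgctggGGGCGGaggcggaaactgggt
Efemp1 had 1 GC box, 29 bases before the start, and the Efemp2 window shown had 2, at 90 and 21 bases before it. The later Efemp2 windows, which overlap each other, held 5 each. Of 32851 RefSeq windows of the same length, 32.7% held the GC box on either strand. Fbn1, Fbln5, Efemp1, Efemp2 and Mfap2 matched 9 windows in all, and the table used here has no window for Eln, Lox, Loxl1, Fbn2 and Mfap4. None of the 9 windows held the forkhead letters TGTTTAC or TGTTTAT, which 3.17% and 4.16% of all windows held, on either strand. None held TATAAA, present in 12.4% of windows, or the CArG box of muscle genes, present in 1.47%. The Smad letters CAGAC, in 42.2% of all windows, were in the first Efemp2 window, in 1 of 2 Fbln5 windows and in 1 of 2 Mfap2 windows, and not in the Efemp1 window. The MCAT letters CATTCC, in 12.6% of all windows, were in 1 Mfap2 window. These are matches of letters in short windows, and no binding was measured.

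Fbn1 (chromosome 2, 125300594 to 125507993) and Fbn2, on chromosome 18, encode the fibrillins, the long beaded backbone of microfibrils, with Fbn2 known as the more embryonic form. Fbn1 measured 425, 175 and 354 CPM across control libraries 1, 2 and 3, and 554, 149.9 and 468 CPM across KO libraries 1, 2 and 3. Fbn2 measured 257, 111 and 212 CPM across control libraries 1, 2 and 3, and 274, 91.3 and 228 CPM across KO libraries 1, 2 and 3. Both were lowest in the libraries numbered 2, and both groups overlapped. Log2 differences were 0.28 (SE 0.50) for Fbn1 and 0.02 (SE 0.45) for Fbn2, the latter turning to a value below 0 with upper-quartile scaling or the replicate number as a block.

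The fibrillins kept a nearly fixed proportion. Fbn1 exceeded Fbn2 per length in all 6 libraries, by ratios of 1.43, 1.37 and 1.44 across control libraries 1, 2 and 3, and of 1.75, 1.42 and 1.78 across KO libraries 1, 2 and 3. The highest of these ratios was 1.30 times the lowest, while the ratio of Lox to Loxl1 spanned 13.7 times and that of Efemp1 to Efemp2 14.0 times. Lox and Efemp1 were listed for their difference between groups, so nothing is read from these wider spans. Both fibrillin genes are long and were lowest in the libraries numbered 2. How often other gene pairs of like length keep so narrow a ratio was not computed. Fbn1 shared 20.1% of its exon bases with Gm9913 on the opposite strand, a predicted gene with at most 27 counts, and the counting did not use strand.

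Mfap2 and Mfap4 encode small glycoproteins found on microfibrils, unrelated to each other in sequence family, and they parted between the groups. Mfap2 (chromosome 4, 141010418 to 141015984), encoding a protein that binds fibrillins, measured 77.9, 94.0 and 98.3 CPM across control libraries 1, 2 and 3, and 52.7, 90.4 and 127 CPM across KO libraries 1, 2 and 3. Its log2 difference was 0.00 (SE 0.42), with pair differences of -0.56, 0.01 and 0.34. Mfap2 thus had no common direction among pairs, and the sign of its difference varied with the scaling.

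Mfap4 (chromosome 11, 61485431 to 61488900), a fibrinogen-domain protein that binds elastin and collagen, measured 126, 163 and 134 CPM across control libraries 1, 2 and 3, and 48.2, 47.7 and 91.8 CPM across KO libraries 1, 2 and 3. Every KO library lay below every control. TMM-scaled means were 144 ± 42.9 and 61.5 ± 17.1 CPM (SD, n = 3 each), the log2 difference was -1.23 (SE 0.39), and its pair differences were -1.38, -1.70 and -0.57. It was -0.92 (SE 0.31) without the libraries numbered 2. The ratio of Mfap2 to Mfap4 per length was 0.978, 0.913 and 1.17 across control libraries 1, 2 and 3, and 1.74, 3.01 and 2.19 across KO libraries 1, 2 and 3. The groups did not overlap in that ratio, which needs no scaling between libraries. Mfap4 was listed because it was lower, so the ratio restates its values and nothing is read from it. How often such a ratio separates the groups among all genes was not computed. Mfap4 shared 4.63% of its exon bases with Mapk7 on the opposite strand.

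**Figure D2:**
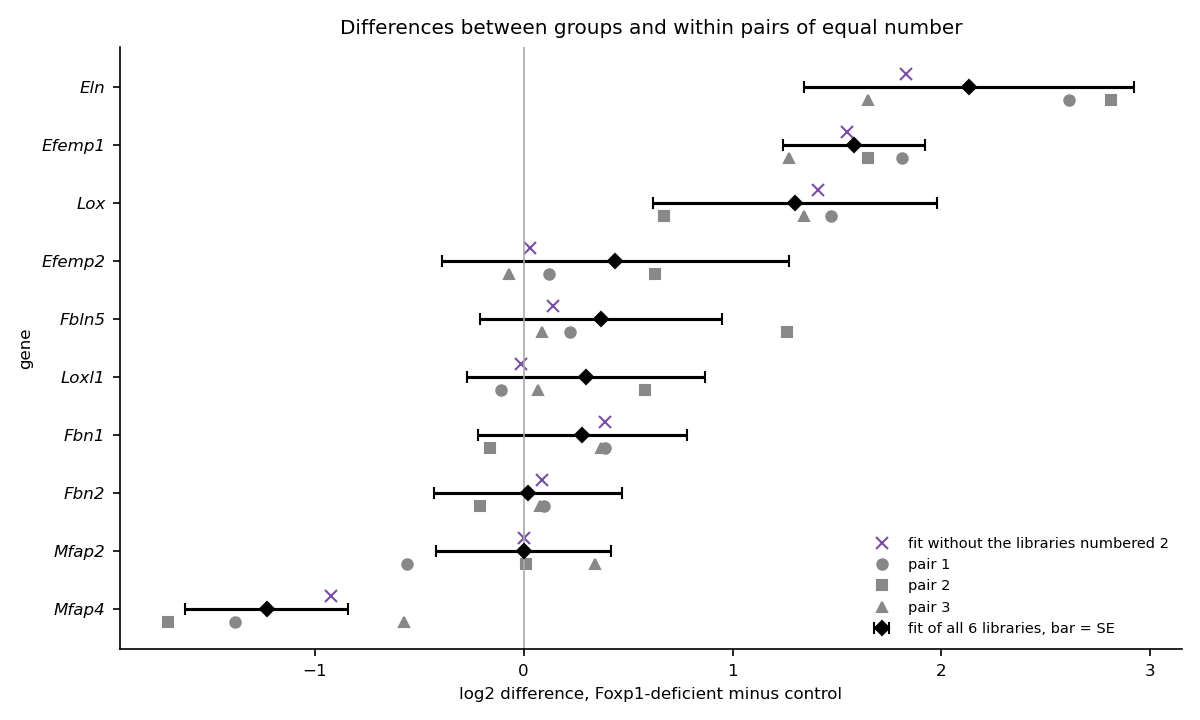
Log2 difference of each gene between KO and control libraries: diamonds with SE bars from the fit of all 6 libraries, grey symbols within pairs of equal number, crosses without the libraries numbered 2. Eln, Efemp1 and Lox lie above 0 and Mfap4 below 0 in all 3 pairs, while Fbn2 and Mfap2 centre on 0.02 and 0.00.

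Read together, 8 of the 10 genes had a log2 difference above 0, where 53.6% of all 14311 genes tested did. The median of the 10 was 0.34, or 0.11 without the libraries numbered 2, beside 0.03 and 0 over all genes tested in the same fits. Efemp1 alone was higher without overlap between groups and Mfap4 alone was lower, where 2.64% and 2.11% of all genes were. In all 3 pairs, 4 of the 10 were higher and 1 was lower, where 16.5% and 16% of all genes were. Since the list was chosen on this contrast, nothing is read from these counts. In the edgeR fit over all genes, 0 genes (0%) passed an adjusted p under 0.05, with 103 at an unadjusted p under 0.05 and 6 called by DESeq2.

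Of the 10 genes, 7 varied more with the replicate number than with the group. For Fbn2, 97.4% of the variance in log2 CPM went with the replicate number, as did 96.6% for Efemp2, 91.7% for Loxl1, 91.1% for Fbn1, 79.8% for Mfap2, 72.8% for Fbln5 and 64.8% for Lox, against 69.5% over all genes. The group took up 94.3% for Efemp1, 77.7% for Mfap4 and 59.5% for Eln, and 32.2% for Lox, against 11.9% over all genes. These 4 genes were chosen for that contrast, and any split of so few libraries takes up some variance. The replicate number splits the libraries into more levels than the group does, so on average it takes up more variance even without an effect. Values over all genes pool their sums of squares. How many of all genes varied more with the replicate number was not counted, so nothing is read from the 7.

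The libraries numbered 2 differed from the others with the same sign in both groups for 8 of the 10 genes. How many of all genes did so was not counted, so nothing is read from the 8. The medians over all genes tested were themselves below 0, at -0.59 in controls and -0.68 in KO libraries on the log2 CPM scale. Set against the mean of libraries 1 and 3 of its group, Efemp2 was higher in library 2 by 1.42 in controls and 1.95 in KO libraries on the log2 CPM scale, and Loxl1 by 0.54 and 1.07. Lox was at -1.73 and -2.54, Fbn1 at -1.15 and -1.76, and Fbn2 at -1.07 and -1.45. Fbln5 was at -1.72 in controls and -0.69 in KO libraries. The signs differed for Eln, at -0.49 and 0.11, and for Mfap4, at 0.33 and -0.48. Over all genes tested the median of this difference was lower for longer genes in both groups, going from 0.30 and 0.23 in the shortest of 4 length bins to -1.06 and -1.28 in the longest. The fibrillins are among the long genes, with 12128 and 10480 exon bases, and lay near the medians of that longest bin. Lox with 4810 bases lay below those of its bin, -0.73 and -0.87, and Efemp2 with 2648 bases lay above -0.48 and -0.55. The part of length or RNA quality in these differences was not tested.

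**Figure D3:**
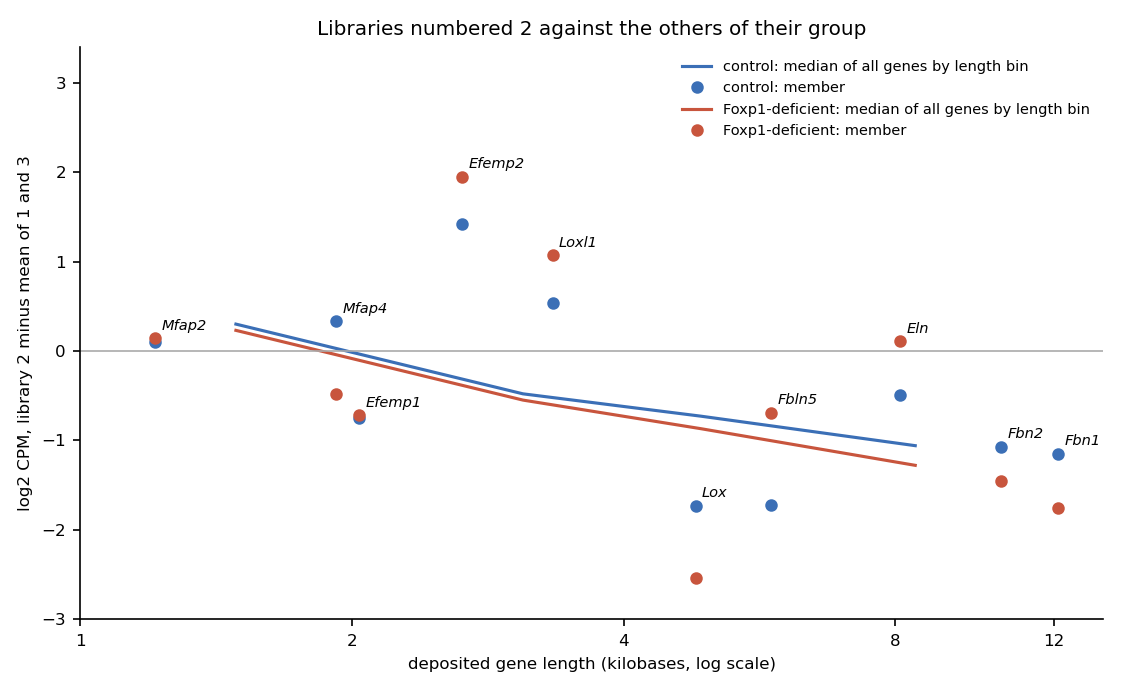
Difference in log2 CPM between library 2 and the mean of libraries 1 and 3 of its group, against gene length on a log axis; points are the 10 genes and lines join medians of all genes tested in 4 bins by length. Both lines fall from above 0 to below -1, with Efemp2 and Loxl1 above them and Lox below.

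Per length, Loxl1 was the most abundant of the 10 transcripts, with a geometric mean of 180.1 CPM per kilobase over the 6 libraries. Lox followed with 91.8, Efemp2 with 88.2, Mfap2 with 71.9, Mfap4 with 47.5, Efemp1 with 42.0, Fbn1 with 26.2, Fbn2 with 17.2, Fbln5 with 8.42 and Eln with 7.78 CPM per kilobase. Transcripts of crosslinking enzymes were thus more abundant than the elastin transcript they serve. Among the 9 pairs of neighbours in this order, only Fbn1 above Fbn2 and Fbn2 above Fbln5 held in all 6 libraries, and the other 7 changed order in at least 1 library. Loxl1 ranked 1 in every control and in KO 2, while Lox ranked 1 and Loxl1 2 in KO libraries 1 and 3. Eln ranked last of the 10 in all 3 controls, and 9, 7 and 8 in KO libraries 1, 2 and 3. Mfap4 ranked 3, 3 and 4 across control libraries 1, 2 and 3, and 8, 6 and 6 across KO libraries 1, 2 and 3.

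Levels of markers of other cell types stand beside these genes, with no test of the sums. The summed level of 8 smooth muscle genes was 11340 to 18897 CPM in controls and 6170 to 11156 CPM in KO libraries, with all 8 lower in the fit and none at 0 in any library. That of 6 mesothelial genes was 1996 to 2245 CPM in controls and 3163 to 5485 CPM in KO libraries, with 5 of 6 higher and none at 0. That of 10 fibroblast and stromal genes, 9 of them tested, overlapped widely, with 5 higher and 4 lower, and Foxd1 at 0 in the libraries numbered 2. Endothelial genes summed to 21.0 to 74.3 CPM in controls and 11.1 to 40.6 CPM in KO libraries, with 5 of 6 lower and Cdh5, Tie1 and Emcn at 0 in at least 1 library. Macrophage and leukocyte genes summed to 232 to 951 CPM in controls and 51.7 to 441 CPM in KO libraries, with all 6 lower in the fit, 5 of 6 lower in every pair and none at 0. Erythroid genes, with 2 of 4 lower, had sums that overlapped. Smooth muscle cells and fibroblasts are known sources of elastin, and Mfap4 is known from smooth muscle. The part of these cell types in the values of Eln, Lox, Efemp1 and Mfap4 was not tested.

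Set against Col1a1, a main fibrillar collagen gene, Lox gave the narrowest values within groups. Whether transcripts of Col1a1 and of the members came from the same cells was not tested. The ratio of Lox to Col1a1 per length was 0.0665, 0.0568 and 0.0708 across control libraries 1, 2 and 3, and 0.191, 0.159 and 0.196 across KO libraries 1, 2 and 3. The groups lay apart, and the libraries numbered 2, which held the least of both transcripts, fell in with their groups. The same ratio was 0.00119, 0.00559 and 0.00686 across control libraries for Eln and 0.0078, 0.0702 and 0.0237 across KO libraries. For Efemp1 it was 0.0218, 0.0352 and 0.0215 across control libraries and 0.0797, 0.195 and 0.0571 across KO libraries. These 3 ratios were higher without overlap, as were those of 4.52% of all genes tested, while the ratios of the other 7 members overlapped. Lox, Eln and Efemp1 were listed because they were higher, so these ratios partly restate their values and nothing is read from the separation.

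For Mfap4, the ratio to Col1a1 was 0.0564, 0.174 and 0.0452 across control libraries and 0.0222, 0.0934 and 0.0334 across KO libraries. Its ratio to Acta2, the smooth muscle actin gene, was 0.0145, 0.0202 and 0.0212 across control libraries and 0.00732, 0.0217 and 0.0289 across KO libraries. In that ratio KO 1 lay below the controls, and KO 2 and 3 lay above them. Eln against Acta2 was 0.000308, 0.000647 and 0.00322 across control libraries and 0.00257, 0.0163 and 0.0205 across KO libraries, so control 3 lay above KO 1.

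**Figure D4:**
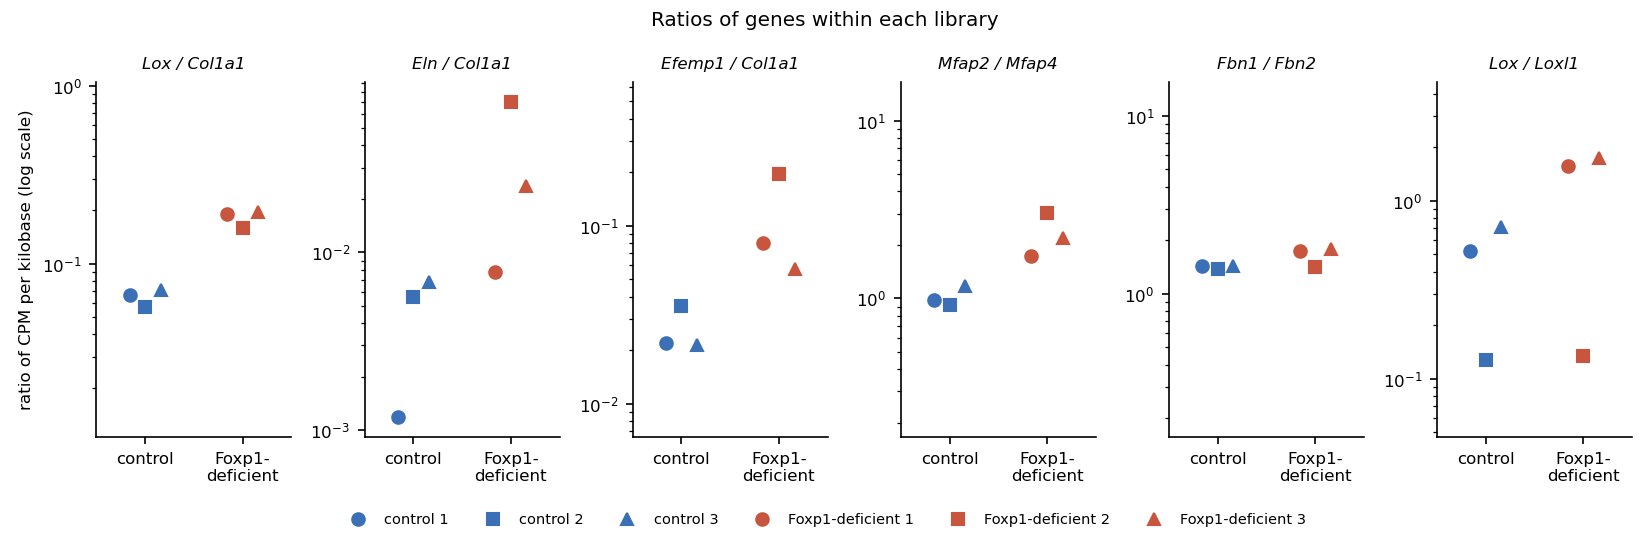
Ratios of CPM per kilobase between pairs of genes within each library, on log axes of equal fold range; symbols give the replicate number. Lox, Eln and Efemp1 against Col1a1 and Mfap2 against Mfap4 separate the groups, Fbn1 against Fbn2 stays between 1.37 and 1.78, and Lox against Loxl1 is lowest in the libraries numbered 2. Lox, Eln, Efemp1 and Mfap4 were listed for this contrast, so nothing is read from the separation.

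The genes whose log2 CPM followed a member most closely over the 6 libraries were named by Pearson's r, as a description. For Lox they were Cast (r = 0.996), encoding calpastatin, Plekha7 (r = 0.995), of epithelial adherens junctions, and F11r (r = 0.994), encoding a tight junction adhesion molecule. For Eln they were Stard5 (r = 0.992), Ahnak2 (r = 0.988) and B4galt2 (r = 0.977), for Efemp1 Serpinb9b (r = 0.991), Vat1l (r = 0.979) and Sema3c (r = 0.977), and for Mfap4 Dpep1 (r = 0.985), Tmem101 (r = 0.972) and Amigo3 (r = 0.970). Of 10311 genes compared, 554 exceeded r = 0.9 with Lox, against 58 with Eln, 63 with Efemp1 and 44 with Mfap4. The 6 points share the group difference and the libraries numbered 2, so high values are common. Pearson's r does not measure the size of a change. B4galt2 ran only from 42.6 to 52.7 CPM across the libraries, and Tmem101 only from 15.0 to 17.7 CPM.

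Another 41 genes of elastic fibre and microfibril assembly were examined, of which 38 could be tested. None passed an adjusted p under 0.05 in the edgeR quasi-likelihood test (0 of 38, with 0 at an unadjusted p under 0.05), as for all genes (0%). In that fit 25 lay above 0 and 13 below, around a median log2 difference of 0.20, or 0.16 without the libraries numbered 2. Blocked by replicate number, edgeR also called 0 of 38, while 9 had an unadjusted p under 0.05, as did 5.32% of all genes. Under that block, DESeq2 called 3 of them, where it called 1.43% of all genes, and limma-voom called 4, where it called 1.7%. Ltbp4 and Vcan were higher and Tgfb3 lower in both, and Thsd4 was higher in limma-voom alone.

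Latent TGF-beta binding proteins tether TGF-beta to microfibrils, and Ltbp4 is also needed for elastin assembly by fibulin-5. Ltbp4 measured 68.0, 64.4 and 130 CPM across control libraries 1, 2 and 3, and 125, 95.1 and 336 CPM across KO libraries 1, 2 and 3. It was higher in the KO library of each pair, with a log2 difference of 1.05 (SE 0.49, unadjusted p = 0.0682 and adjusted p = 1 by edgeR's quasi-likelihood test). With the block, Ltbp4 was at 0.96 (SE 0.18, adjusted p = 0.531) in edgeR, and at adjusted p = 0.00179 in DESeq2 and 0.00335 in limma-voom. Ltbp1, Ltbp3 and Ltbp2 had log2 differences of 0.55 (SE 0.52), 0.25 (SE 0.69) and -0.42 (SE 0.85). Ltbp1 and Ltbp3 were higher in the KO library of all 3 pairs. With the block, Ltbp1 was at 0.61 (SE 0.19, unadjusted p = 0.0212 and adjusted p = 0.853 in edgeR) and Ltbp3 at 0.23 (SE 0.14), and neither passed.

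Vcan encodes versican, a large proteoglycan that binds fibrillins and fibulins. It measured 94.9, 27.7 and 64.8 CPM across control libraries 1, 2 and 3, and 207, 37.9 and 139 CPM across KO libraries 1, 2 and 3. Vcan was higher in the KO library of every pair, although the groups overlapped through the low libraries numbered 2. Its log2 difference was 1.02 (SE 0.61, unadjusted p = 0.135 and adjusted p = 1 by edgeR's quasi-likelihood test). Blocked and without the libraries numbered 2, edgeR put Vcan at 1.10 (SE 0.11, adjusted p = 0.0376). That fit called 30 of 15303 genes. With so few libraries its SE rests largely on spread shared across genes, and the pairing was taken from the data. The other fibulins were Fbln1, at 55.7 ± 11.6 and 110 ± 55.3 TMM-scaled CPM in controls and KO libraries (SD, n = 3 each), and Fbln2, at 640 ± 247 and 854 ± 395. Fbln1 had a log2 difference of 0.98 (SE 0.44, unadjusted p = 0.0587 by edgeR's quasi-likelihood test), the lowest p of the list, and 0.40 (SE 0.23) without the libraries numbered 2.

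In the other direction, Emilin1, encoding an elastin interface glycoprotein, measured 162, 172 and 171 CPM across control libraries 1, 2 and 3, and 98.5, 72.2 and 158 CPM across KO libraries 1, 2 and 3. All 3 KO libraries lay below the controls, as they did for 2.11% of all genes tested. The difference of -0.67 (SE 0.36, unadjusted p = 0.102 and adjusted p = 1 by edgeR's quasi-likelihood test) did not pass. In contrast, Fbln1, Ltbp4 and Neu1 were higher without overlap when scaled by TMM, as were 2.64% of all genes tested. By library total, the groups overlapped for Ltbp4 and Neu1. Tgfb3, a TGF-beta ligand gene, was at -0.85 (SE 0.57), Mmp2, a gelatinase gene, at -0.60 (SE 0.52), and Itga8, an integrin chain gene of kidney mesenchyme, at -0.67 (SE 0.65). Neu1, encoding the sialidase of the elastin receptor complex, was at 0.69 (SE 0.45), while Glb1 and Ctsa of the same complex were at 0.00 (SE 0.37) and -0.18 (SE 0.48). Loxl2, a further lysyl oxidase gene, was high in every library, at 486 to 738 CPM, with a difference of 0.21 (SE 0.37). Mfap5, a close relative of Mfap2, reached at most 5.96 CPM, and the neutrophil elastase gene Elane, not tested, at most 5.77.

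**Figure D5:**
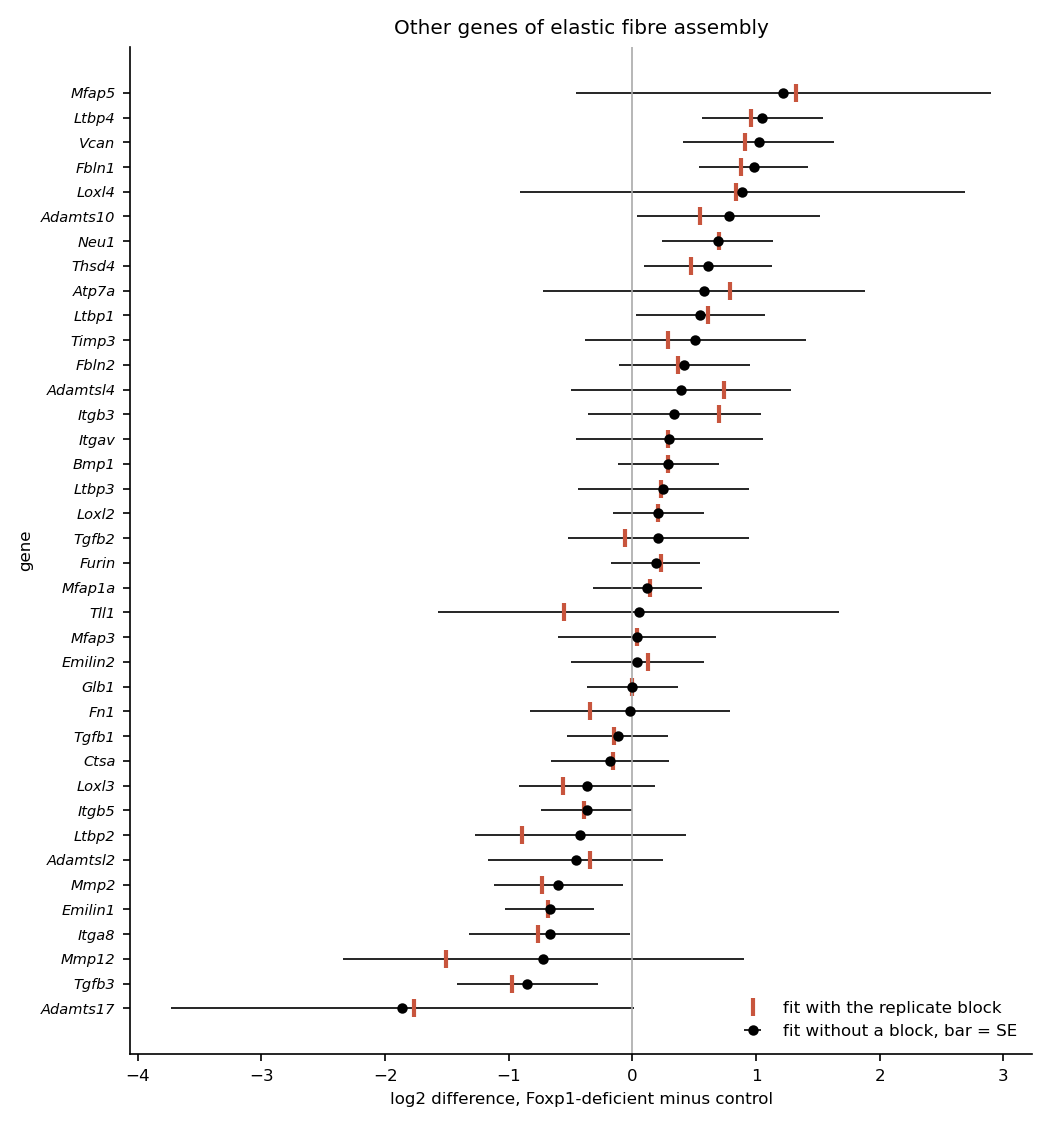
Log2 difference between KO and control libraries for the 38 tested genes of elastic fibre assembly outside the set; points with SE bars from the edgeR fit without a block and red ticks from the blocked fit. Ltbp4, Vcan and Fbln1 lie near 1 and Tgfb3 and Emilin1 below 0, and none passed the test in either fit.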

How the data were processed

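The authors deposited raw counts of fragments per gene name, per the file headers: featureCounts 1.5.1 in paired mode summed exons of annotation version 86 for mm10. The command has no strand or multi-mapping option. Per the submitters' processing notes, STAR and Trimmomatic are among the tools. How they were set is not given in the sources used here. Gene length, deposited by the authors in bases, was used for levels per kilobase and for a description by length. All 48587 rows carry a gene name.

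Counts of all genes were fitted with edgeR 4.0.16 in R 4.3.3 (TMM, filterByExpr, quasi-likelihood test, two-sided, Benjamini-Hochberg at 0.05, 14311 genes). SE is the log2 difference divided by the square root of F. DESeq2 1.42.0, limma-voom (limma 3.58.1) with quality weights, other scalings and filters, the replicate block and each library left out were alternatives. The procedure was run on simulated counts with the same dispersion for every gene. Its outcome is not reported here, and it does not vouch for the calls made on these libraries. Pair differences use log2 of TMM-scaled CPM plus 0.5. Library totals ran from 9710048 to 18958196, and a count of 0 leaves room for up to 3 counts, 0.158 to 0.309 CPM, for counting error only.

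Same-numbered libraries deviated together across genes (r = 0.57, 0.53 and 0.62), so the numbers were taken to pair them, from the data and not the labels.

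The members, the 41 further genes, the markers and the tests were chosen with earlier results of these data known. All members are named, with up to 4 further genes of lowest p in each direction plus those with a role beside a member, and the 3 genes closest to Eln, Lox, Efemp1 and Mfap4 by Pearson's r of log2 CPM plus 0.5 (predicted genes and genes averaging under 5 CPM left out). Loxl2, Glb1, Ctsa, Elane and Thsd4 were named after their values were seen. Promoter sequences are from RefSeq, build GRCm38.p6. Figures were drawn with matplotlib 3.10.9.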

Additional observations from a re-analysis of the deposited data

How the results depend on the processing

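Leaving out each library in turn, the count of members above 0 ran from 6 to 8 of 10, against 8, and 0 genes and 0 of the further pathway genes were called each time by edgeR. Over all 18 alternatives that count ran from 6 to 9, and Eln, Lox, Efemp1 and Mfap4 kept their sign in each. Their log2 differences ran from 1.68 to 3.16, 0.92 to 1.73, 1.44 to 1.73 and -1.47 to -0.92. Efemp2 went from 0.44 to -0.83 without Foxp1-deficient 2, and Loxl1 from 0.30 to -0.38. Signs of Loxl1, Fbn1, Fbn2, Fbln5, Efemp2 and Mfap2 each turned in at least 1 alternative.

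Over all genes, edgeR called 0 with and 0 without the replicate block, DESeq2 6 without and 169 with the replicate block, limma-voom 244 with the replicate block, and edgeR 30 with the block and without both libraries numbered 2. Of the further pathway genes, DESeq2 called 3 and limma-voom 4 with the block, and edgeR called 1, Vcan, with the block and without the libraries numbered 2. The cause was not tested. CPM by library total moved no group mean of a member by more than its SD. The lowest value of a member was 161 counts, so none was near the floor of counting. The libraries numbered 2 had fewer genes detected than the others, and whether this affected the members was not tested.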
